A study of Mus musculus with 2 samples.

Results

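The genes described are 10 members of the p53, CDK inhibitor and retinoblastoma pathways: the p53 gene Trp53, its inhibitors Mdm2 and Mdm4, its targets Ccng1 and Cdkn1a, the CDK inhibitors Cdkn1b and Cdkn2a, and the pocket protein genes Rb1, Rbl1 and Rbl2. They were taken by symbol from the 22556 genes of the count table, Cdkn1a being both a p53 target and a CDK inhibitor, and all 10 were found. Polyadenylated RNA was sequenced at 0 h from the mouse embryonic stem cell (mESC) line iXist-ChrX-Dom, as 1 group of 2 replicates, to rank genes by their level before Xist is induced. With 1 group there is no comparison of treatments, so what can be measured is the level of each gene, its place among the other genes, and how far the 2 libraries differed.

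The cells were female (XX) and came from a cross labelled Dom/129S x Cast. On the Dom/129S allele the endogenous Xist promoter was exchanged for a TetOn promoter, which responds to doxycycline, and both samples carried this allele and were left untreated. The line is a single engineered clone, and it was kept in serum medium with LIF on mitomycin C-inactivated mouse fibroblasts, from which it was separated by pre-plating. The sample labels give the cell type as mESC to NPC, although both titles name ES cells at 0 h. The sources used here do not say whether the replicates were separate cultures, so differences between these libraries may be technical. The p-values set each difference against counting error only and hold no estimate of the spread between replicates.

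The p53 protein is a transcription factor that responds to DNA damage and other stress. Mdm2 and Mdm4 bind and restrain it, Mdm2 marks it for degradation, and Mdm2 is itself switched on by p53, which closes a feedback loop. Cdkn1a is the target through which p53 halts the cell cycle: its product p21 inhibits cyclin-dependent kinases, the kinases otherwise phosphorylate the pocket proteins, and unphosphorylated pocket proteins hold E2F factors inactive. Mouse ES cells are known for a short G1 phase, for pocket proteins that are phosphorylated through most of the cycle, and for abundant p53 protein, none of which an mRNA level measures.

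Levels are given as transcripts per 1000000 (TPM), that is counts divided by gene length and scaled to the same sum in each library. The length was the exonic length, the union of the exons of a gene. The deposited counts also include fragments from introns, which the table does not separate from exonic ones, so levels on the span length (exons and introns together) are given for the 10 genes where they change the picture. Highest and lowest genes of a list are by the mean TPM on the exonic length unless said otherwise. Replicate 1 held 23716499 counts and replicate 2 held 20275749, and a count of 0 would allow up to 0.126 and 0.148 counts per 1000000 (CPM). Each gene's 2 counts were compared by a two-sided exact binomial test against the library totals, with Benjamini-Hochberg adjustment over 14536 genes, which compares these libraries and not conditions. Log2 ratios between libraries are of CPM, so they can differ in sign from those of TPM. By this test 60.8% of all tested genes differed, 15.1% being higher and 45.7% lower in replicate 2, and the biological coefficient of variation between the libraries was 0.277. The ratio between libraries fell with GC content (Spearman's rho -0.67 across 9694 genes counted at least 50 times in both libraries, all from the same 2 libraries).

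Of 15 ES cell markers, 14 reached 1 TPM (median 110 TPM). Their summed level was 5913 TPM in replicate 1 and 4665 TPM in replicate 2, 13 being lower, 1 higher and 1 not past the test, beside 45.7% lower and 15.1% higher among all tested genes. The pluripotency factor Pou5f1 had 1129 counts in replicate 1 and 142 in replicate 2 (log2 ratio -2.76). Dppa5a had 2915 and 298 counts (log2 ratio -3.06), and Dppa3 and Esrrb had log2 ratios of -1.60 and -1.24. Nanog had 13460 and 10151 counts. Of 18 fibroblast markers, which bear on remaining feeder cells, 5 reached 1 TPM (median 0.154 TPM, summed level 201 and 168 TPM, 4 lower and none higher of 9 tested, beside the same 45.7% and 15.1%). The fibroblast collagen gene Col1a1 had 4 and 5 counts, Col3a1 had 0 and 1, and Lum had none in either library, while Fn1 (117 and 119 TPM) and Sparc (69.0 and 37.2 TPM) made up most of the summed level. Neural precursor markers reached 1 TPM in 4 of 12 cases (median 0.112 TPM, summed level 233 and 246 TPM, none higher and 2 lower of 5 tested), and Sox1 and Olig2 had no count. Vim (164 and 182 TPM) and Slc1a3 (59.3 and 58.2 TPM) made up most of that sum. Primitive endoderm markers reached 1 TPM in 3 of 8 cases (median 0.420 TPM, summed level 16.5 and 16.0 TPM, none of 5 tested past the test). In bulk RNA, fewer cells of a type and less RNA per cell cannot be told apart.

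All 10 genes were expressed. Each reached 1 TPM, which 55.4% of the 22126 genes with an exonic length did, and their median was 68.9 TPM against 1.86 TPM over all genes and 18.4 TPM over genes of at least 1 TPM. They covered a 99.4-fold range, from Cdkn2a at 10.9 TPM to Ccng1 at 1087 TPM. Ccng1, Mdm4 and Mdm2 lay above the 95th percentile of all genes. On the exonic length Cdkn1b, Rb1 and Rbl1 formed a middle range, followed by Trp53 and Rbl2, and Cdkn1a and Cdkn2a were lowest. Of the 9 neighbouring pairs in this order, the ranges over the 2 libraries were apart in 6 and overlapped in 3, namely Mdm4 with Mdm2, Cdkn1b with Rb1, and Rb1 with Rbl1. The order of Rb1 and Rbl1 differed between the libraries, and Cdkn1a exceeded Cdkn2a by only 1.06-fold in replicate 2 against 1.82-fold in replicate 1. On the span length the order changed below Mdm4, to Cdkn1b, Mdm2, Trp53, Rbl1, Cdkn1a (21.9 TPM), Rbl2, Rb1 and Cdkn2a.

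**Figure D1:**
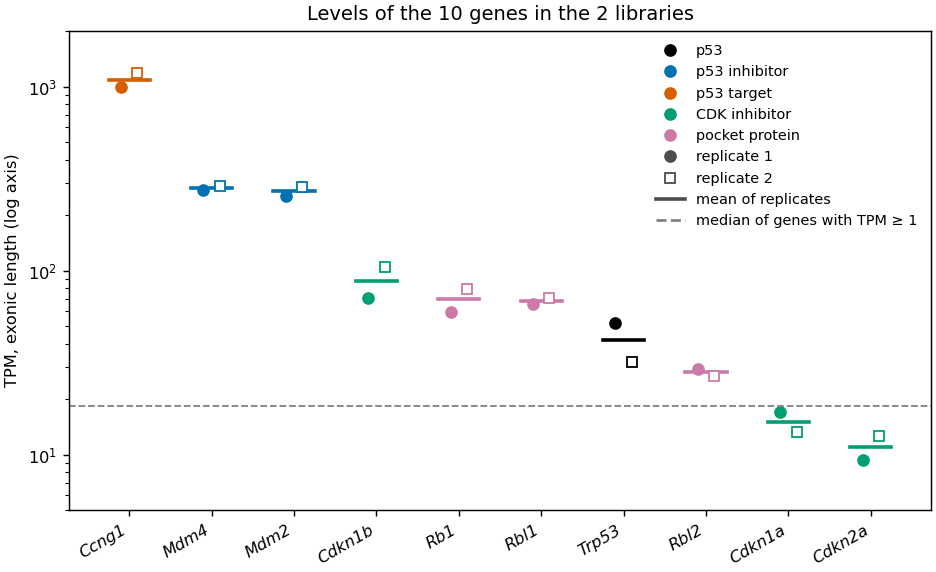
TPM on the exonic length (log axis) of the 10 genes in replicate 1 (filled circles) and replicate 2 (open squares), ordered by their mean (bars) and coloured by role; the dashed line is the median of genes of at least 1 TPM. Ccng1 stands at 990 and 1184 TPM, Mdm4 and Mdm2 between 253 and 288 TPM, and Cdkn1a and Cdkn2a lie below the dashed line at 18.4 TPM.

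The upstream sequences of the p53 gene and of its targets are shown first, because a p53 response element is built from pairs of a decamer half-site. RefSeq promoter windows (GRCm38.p6, 250 bases before to 50 after each start) were given for 9 of the 10 genes in 12 windows, with none for Rb1. The p53 half-site consensus, read on both strands, occurred in 4 of these 12 windows and in 8.356% of 32851 windows. Those 4 belonged to Ccng1, Mdm2, Trp53 and Cdkn1a. The 250 bases before the start follow, 5′ to 3′ along the gene, with matches to the half-site consensus in capitals. They lie at chr17:29090729-29090978 (+) for Cdkn1a, at chr11:40755287-40755536 (-) for Ccng1, at chr10:117710759-117711008 (-) for Mdm2 and at chr11:69580109-69580358 (+) for Trp53.
Cdkn1a: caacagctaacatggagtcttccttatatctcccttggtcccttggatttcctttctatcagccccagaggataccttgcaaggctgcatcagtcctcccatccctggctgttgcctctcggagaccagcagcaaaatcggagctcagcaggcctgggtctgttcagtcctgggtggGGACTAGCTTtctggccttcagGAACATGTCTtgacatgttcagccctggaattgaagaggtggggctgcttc
Ccng1: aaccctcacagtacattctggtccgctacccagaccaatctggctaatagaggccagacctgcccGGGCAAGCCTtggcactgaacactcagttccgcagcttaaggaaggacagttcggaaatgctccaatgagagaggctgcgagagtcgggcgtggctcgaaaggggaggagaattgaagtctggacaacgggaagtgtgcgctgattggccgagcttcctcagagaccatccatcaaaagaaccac
Mdm2: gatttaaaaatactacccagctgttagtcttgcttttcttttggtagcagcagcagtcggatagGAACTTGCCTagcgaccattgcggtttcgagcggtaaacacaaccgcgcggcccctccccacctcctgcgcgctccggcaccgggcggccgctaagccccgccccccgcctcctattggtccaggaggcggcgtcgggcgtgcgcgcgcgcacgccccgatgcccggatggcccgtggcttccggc
Trp53: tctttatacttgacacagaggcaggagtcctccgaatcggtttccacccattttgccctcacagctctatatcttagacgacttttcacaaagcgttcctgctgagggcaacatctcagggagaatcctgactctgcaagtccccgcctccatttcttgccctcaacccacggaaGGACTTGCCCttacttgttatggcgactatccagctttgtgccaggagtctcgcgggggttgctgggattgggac

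The Cdkn1a window held 2 matches, beginning 73 and 51 bases before the start, and was the only one of the 12 with a pair at most 13 bases apart. Such a pair occurred in 24 of all 32851 windows (0.07306%). The other windows held a single match, beginning 185 bases before the start in Ccng1, 186 in Mdm2 and 75 in Trp53. Only exact matches to the consensus were counted. A pair with an imperfect half-site, in Ccng1 or elsewhere, would therefore be missed, so a single match does not show that a pair is lacking. The second Cdkn1a window, at the start lying further downstream, held none. The levels of these 4 genes ran from 15.1 TPM for Cdkn1a to 1087 TPM for Ccng1, so a match did not go with one level. A match describes these letters only, since p53 binding was not measured here. Read on both strands, the motif TATAAA was found in the Trp53 window alone among the 12 (13.62% of all windows) and CCAAT in 5 of the 12 (37.41% of all windows). The TATAAA match lies on the reverse strand, at the end of the Trp53 window furthest from the start.

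Trp53 (chr11:69580358-69591873, + strand, mm10) was counted 729 times in replicate 1 but 359 times in replicate 2. On the exonic length this was 51.9 and 31.8 TPM, or 41.8 TPM ± 14.2 (SD, n = 2), at percentile 81.3 of all genes. On the CPM scale Trp53 was 1.74-fold higher in replicate 1, the widest difference among the 10 genes. The log2 ratio of replicate 2 to replicate 1 was -0.79 (95% confidence interval -0.98 to -0.61, adjusted p = 1.46e-17 by the exact binomial test). Trp53 has a high GC content of 54.0%, and its difference was -0.15 once the trend of the ratio with GC was subtracted (adjusted p = 0.208 by the exact test with the GC trend as the expectation). Of its transcript's 50-base words, 7.43% also occur in the pseudogene Trp53-ps, and the effect of this on its count was not tested.

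Trp53 was the only well-expressed gene of its family. Trp73, which encodes the related factor p73, had 52 and 28 counts, or 1.30 and 0.870 TPM. Trp63, which encodes p63 of epithelia and oocytes, had 9 and 7 counts, or 0.143 and 0.138 TPM, the lowest level of the 3. The differences between libraries did not pass the exact test for Trp73 (adjusted p = 0.0867) or Trp63 (adjusted p = 1.0). The median of the family was 1.08 TPM.

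Both inhibitors of p53 had a higher TPM than Trp53 itself. Trp53 has a GC content of 54.0%, against 46.2% for Mdm2 and 43.3% for Mdm4, and the part of GC content in this gap was not tested. Mdm2 (chr10:117688874-117710758, - strand), the ubiquitin ligase, had 5978 and 5428 counts, which gave 253 and 285 TPM, or 269 TPM ± 23.1 (SD, n = 2). Mdm4 (chr1:132989844-133025348, - strand), its partner that masks the activation domain of p53, had 22523 and 18877 counts, which gave 276 and 288 TPM, or 282 TPM ± 8.24 (SD, n = 2). Per length the transcripts were nearly equal, with a ratio of Mdm4 to Mdm2 of 1.09 in replicate 1 and 1.01 in replicate 2. The equality depended on the length, because the union of Mdm4 exons (10859 bp) is longer than its longest transcript (7105 bp). With the longest transcript Mdm4 stood at 407 TPM, and on the span length it was 2.32 and 2.14 times Mdm2. For Mdm4, 15.5% of the 50-base words are shared with the pseudogene Mdm4-ps.

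The ratio of Mdm2 to Trp53 on the exonic length was 4.87 in replicate 1 and 8.98 in replicate 2 (6.93 ± 2.91, SD, n = 2). That of Mdm4 to Trp53 was 5.31 and 9.05, and 10.02 and 17.1 on the span length. Both inhibitors exceeded Trp53 in each library. The level of Mdm2 was 1.06-fold higher in replicate 2 on the CPM scale (log2 ratio 0.087, 95% confidence interval 0.034 to 0.14, adjusted p = 0.00286, exact binomial test). The log2 ratio of Mdm4 on the same scale was -0.029 (-0.057 to -0.00067, adjusted p = 0.0702, exact test), opposite in sign to its difference in TPM.

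Ccng1 (chr11:40748551-40755286, - strand), which encodes cyclin G1 and is a direct p53 target, was the most abundant of the 10 genes. It had 26142 and 25139 counts, which gave 990 and 1184 TPM, or 1087 TPM ± 137 (SD, n = 2), at percentile 99.6 of all genes. It made up 54.3% and 56.5% of the summed TPM of the 10 genes. The log2 ratio between libraries was 0.17 (0.14 to 0.19, adjusted p = 3.25e-39, exact test). With the lowest GC content of the 10, 40.8%, its difference was -0.039 after the GC trend was subtracted, and it was then called lower instead of higher (adjusted p = 0.00587, exact test with the GC trend as the expectation).

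Cdkn1a (chr17:29090985-29100722, + strand), which encodes the Cip/Kip inhibitor p21, stood near the other end of the range. It had 346 and 218 counts, which gave 16.9 and 13.3 TPM, or 15.1 TPM ± 2.59 (SD, n = 2), at percentile 70.2. The ratio of Ccng1 to Cdkn1a was 58.5 in replicate 1 and 89.2 in replicate 2, so these p53 targets were separated by far more than the libraries differed. On the span length the ratio was 109 and 167. Cdkn1a was lower in replicate 2 (log2 ratio -0.44, -0.69 to -0.19, adjusted p = 0.000871, exact test). Its difference was 0.23 after subtraction of the GC trend, with the sign reversed, and did not pass the exact test then (adjusted p = 0.134).

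The wider list of p53 target genes covered a still greater range. Of 28 targets, 27 reached 1 TPM, with a median of 27.5 TPM against 1.86 TPM over all genes. Below Ccng1, the highest, the list ran down to Sfn, which encodes 14-3-3 sigma and had 9 and 2 counts, or 0.742 and 0.205 TPM; on the span length Fas was lowest. Between libraries 9 targets were higher in replicate 2, 14 were lower and 5 did not pass the exact test. The 23 that passed compare with 60.8% of all tested genes, of which 15.1% were higher and 45.7% lower. The targets were deeply counted, with a median of 1178 counts over both libraries against 486 for tested genes. With the GC trend as the expectation 16 targets passed, beside 44.6% of the genes tested that way. The largest difference past the test was in Psrc1, a gene of microtubule dynamics, with 1092 and 293 counts (log2 ratio -1.67, adjusted p = 1.56e-81, exact test).

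Of 16 regulators of p53, all reached 1 TPM, with a median of 149 TPM. The highest was Usp7, which encodes a deubiquitinase of Mdm2 and p53, at 644 and 507 TPM, although on the span length Rpl5 was highest (619 TPM against 294 TPM). Kat5, which encodes an acetyltransferase, had the lowest mean, with 16.4 and 5.43 TPM, and differed most (278 and 74 counts, log2 ratio -1.68, adjusted p = 1.64e-21, exact test). In replicate 1, and on the span length, Hipk2 lay below Kat5. In all, 6 regulators were higher in replicate 2, 6 were lower and 4 did not pass the test, that is 12 past it among genes with a median of 8524 counts. Of all tested genes 60.8% passed, 15.1% higher and 45.7% lower. Mdm2 and Mdm4 therefore lay above the middle of their own list.

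Among the CDK inhibitors Cdkn1b had the highest TPM in both libraries. Its GC content was 43.1% against 54.4% for Cdkn1a, and the part of GC content in this gap was not tested. Cdkn1b (chr6:134920400-134925525, + strand), which encodes p27, had 2431 and 2882 counts, which gave 71.0 and 105 TPM, or 87.9 TPM ± 23.8 (SD, n = 2). It supplied 75.0% and 84.1% of the TPM of the Cip/Kip genes Cdkn1a, Cdkn1b and Cdkn1c (79.5% ± 6.44, SD, n = 2). It also exceeded Cdkn1a 4.20-fold in replicate 1 and 7.89-fold in replicate 2, and 13.3-fold and 25.1-fold on the span length. Cdkn1b was higher in replicate 2 (log2 ratio 0.47, 0.39 to 0.55, adjusted p = 1.59e-31, exact test), the largest upward difference of the 10 genes. It remained 0.40 after subtraction of the GC trend. On the span length Cdkn1b stood at 409 TPM, since its introns add little to its length (4552 bp of exons in a span of 5126 bp), and its Cip/Kip share was then 89.3%.

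Cdkn2a (chr4:89274472-89294619, - strand) gives rise to both p16Ink4a, which inhibits CDK4 and CDK6, and p19Arf, which inhibits Mdm2, and counts per gene cannot separate them. It had 82 and 89 counts, which gave 9.31 and 12.6 TPM, or 10.9 TPM ± 2.30 (SD, n = 2). It was the lowest of the 10 genes and still lay at percentile 66.9 of all genes. The log2 ratio was 0.34 (-0.10 to 0.80, adjusted p = 0.177, exact test). Cdkn2a has the highest GC content of the 10, 60.2%, where most genes were lower in replicate 2. Its difference after subtraction of the GC trend was 1.11, outside the 95th percentile of 0.59, and passed the exact test then (adjusted p = 2.70e-06).

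All 7 CDK inhibitor genes reached 1 TPM, with a median of 9.08 TPM, and their sum was 125 and 150 TPM. Cdkn2c, which encodes p18, had the lowest mean, with 4.11 and 3.76 TPM, but Cdkn2b was lower in replicate 2 and Cdkn2a was lowest on the span length. The INK4 gene Cdkn2b had the largest difference past the test, with 60 and 24 counts (log2 ratio -1.08, adjusted p = 0.00287, exact test). In all, 1 gene was higher in replicate 2, 3 were lower and 3 did not pass, a share past the test near the 60.8% of all tested genes. Cdkn2a gave 30.3% and 48.7% of the TPM of the INK4 genes on the exonic length but 4.98% and 9.92% on the span length, where its level was 3.33 TPM ± 0.824 (SD, n = 2). The 5 genes of the SCF-Skp2 ligase, which marks p27 for degradation, all reached 1 TPM with a median of 131 TPM. Its adaptor Skp1a was highest at 2017 and 1751 TPM and the F-box gene Skp2 lowest at 48.2 and 49.0 TPM. Of the 5, none was higher in replicate 2, 2 were lower and 3 did not pass (15.1% higher and 45.7% lower over all tested genes), the largest difference being that of Rbx1, the RING subunit (log2 ratio -0.57, adjusted p = 8.50e-32, exact test).

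The pocket protein genes were all expressed, with overlapping levels of Rb1 and Rbl1 and a lower one of Rbl2 on the exonic length. Rb1 (chr14:73195501-73325791, - strand), which encodes the retinoblastoma protein, had 2084 and 2247 counts, which gave 59.5 and 79.8 TPM, or 69.7 TPM ± 14.3 (SD, n = 2). Rbl1 (chr2:157145893-157204534, - strand), which encodes p107, had 2392 and 2085 counts, which gave 65.4 and 70.9 TPM, or 68.2 TPM ± 3.88 (SD, n = 2). Rbl2 (chr8:91070056-91123844, + strand), which encodes p130, the pocket protein of quiescent cells, had 1075 and 799 counts, which gave 29.0 and 26.8 TPM, or 27.9 TPM ± 1.55 (SD, n = 2). Rbl1 is itself known as an E2F target. Its window was the only one of the 12 with an E2F motif in the forms searched (TTTCGCGC or TTTGGCGC on either strand, present in 0.8128% of all windows). Other forms of the motif were not searched, and Rb1 had no window. The motif began 18 bases before the start and is in capitals in the 250 bases at chr2:157204535-157204784 (-).
Rbl1: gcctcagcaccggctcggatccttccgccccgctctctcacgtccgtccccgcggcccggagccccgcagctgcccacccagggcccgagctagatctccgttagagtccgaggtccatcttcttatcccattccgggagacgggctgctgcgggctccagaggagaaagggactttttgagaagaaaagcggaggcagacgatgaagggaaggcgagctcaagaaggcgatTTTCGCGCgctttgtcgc

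Of the summed pocket protein TPM, Rb1 gave 38.7% in replicate 1 and 44.9% in replicate 2 (41.8% ± 4.45, SD, n = 2). Rbl1 gave 42.5% and 39.9%, and Rbl2 gave 18.9% and 15.1%. Rb1 was higher in replicate 2 (log2 ratio 0.33, 0.25 to 0.42, adjusted p = 1.29e-13, exact test). Rbl2 was lower (log2 ratio -0.20, -0.34 to -0.069, adjusted p = 0.00556, exact test). For Rbl1 the log2 ratio was 0.028 (-0.057 to 0.11, adjusted p = 0.599, exact test). Rb1 spans 130291 bp against 4656 bp of exons, so on the span length it stood at 13.02 TPM and 23.2% of the pocket protein sum, and Rbl1 led at 29.5 TPM. Rbl2 then stood at 13.3 TPM and 24.0% of the sum, no longer below Rb1, and exceeded it in replicate 1 (26.0% against 20.8%). The genes Lpar6, within Rb1, and Aktip, at the end of Rbl2, lie on the opposite strands, which the stranded counting keeps apart.

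**Figure D2:**
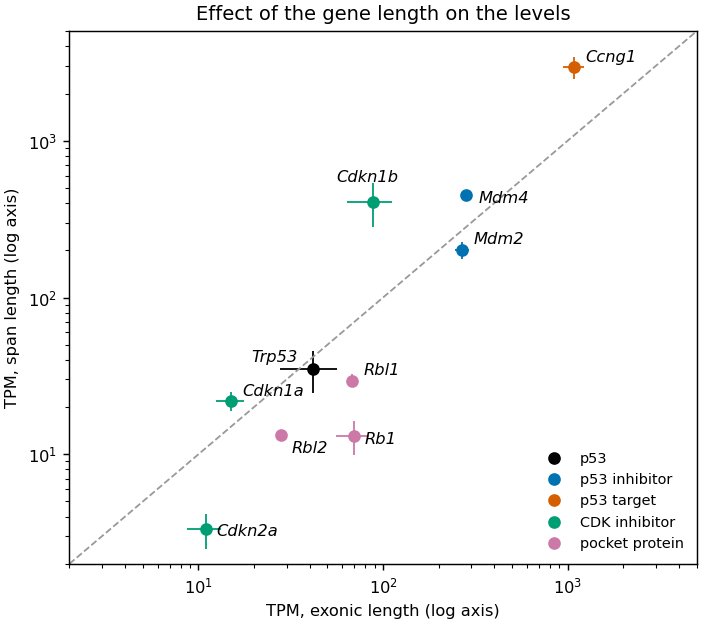
Mean TPM of the 10 genes on the exonic length (horizontal, log axis) and on the span length that includes introns (vertical, log axis), with bars of 1 SD over 2 replicates and a dashed line of equality. Rb1 moves from 69.7 to 13.02 TPM and Cdkn1b from 87.9 to 409 TPM, while Ccng1 stays highest and Cdkn2a lowest on both.

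Of the partners of the pocket proteins, all 10 E2F and DP genes reached 1 TPM, with a median of 29.6 TPM. E2f5, which encodes a factor bound mainly by p130, was highest at 180 and 212 TPM. The activator E2f2 was lowest at 3.14 and 1.54 TPM and differed most (112 and 44 counts, log2 ratio -1.11, adjusted p = 1.63e-05, exact test). In this list 2 genes were higher in replicate 2, 6 were lower and 2 did not pass, beside 15.1% higher and 45.7% lower among all tested genes. All 6 genes of the MuvB core, which joins p107 or p130 in the DREAM complex, and of its later partner B-Myb reached 1 TPM (median 81.2 TPM). Lin52 had the highest mean, with 297 and 354 TPM, but Rbbp4 exceeded it in replicate 1 and on the span length (248 TPM against 48.2 TPM). Lin37 was lowest at 1.82 and 0.754 TPM. Of these 6, 2 were higher, 2 were lower and 2 did not pass (60.8% of all tested genes passed), with the largest difference past the test in Mybl2 (log2 ratio -1.01, adjusted p = 6.62e-79, exact test).

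Of the 8 kinases and cyclins that phosphorylate pocket proteins, 7 reached 1 TPM, with a median of 49.1 TPM. Ccne2, which encodes cyclin E2, had the highest mean, with 110 and 152 TPM, but Cdk2 exceeded it in replicate 1 and on the span length. Ccnd2, which encodes cyclin D2, was lowest with 8 and 6 counts, or 0.159 and 0.148 TPM. Ccnd3, which encodes cyclin D3, differed most (270 and 74 counts, log2 ratio -1.63, adjusted p = 2.54e-20, exact test). In all, 2 of the 8 were higher in replicate 2, 4 were lower and 2 did not pass, against 15.1% higher and 45.7% lower over all tested genes.

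**Figure D3:**
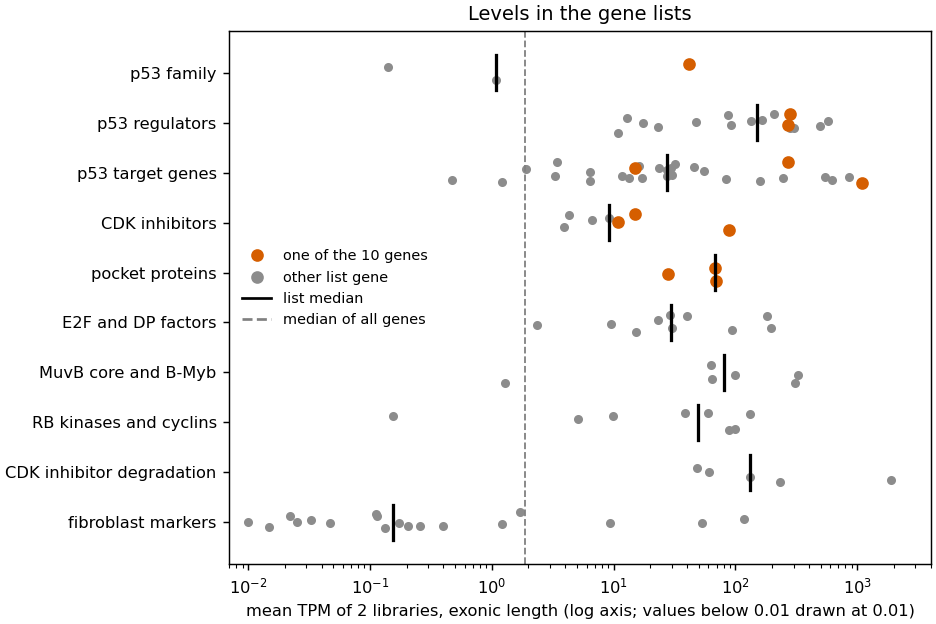
Mean TPM over 2 libraries on the exonic length (log axis) of each gene of 9 pathway lists and of the fibroblast markers, with the 10 genes in orange, other genes in grey and list medians as black bars; the dashed line is the median of all genes, 1.86 TPM. The medians of 8 pathway lists lie between 9.08 and 149 TPM, that of the p53 family at 1.08 TPM and that of the fibroblast markers at 0.154 TPM.

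Between the libraries, 7 of the 10 genes passed the exact binomial test, 4 of them higher in replicate 2 (Mdm2, Ccng1, Cdkn1b and Rb1) and 3 lower (Trp53, Cdkn1a and Rbl2). Over all tested genes the shares were 60.8% in either direction, 15.1% higher and 45.7% lower. Counting depth bears on this comparison, since 73.6% of the 9409 tested genes with at least 171 counts, the smallest summed count of the 10, passed the test. The direction went with GC content over all tested genes, and the cause of this was not tested. Below 45% GC, 44.8% of tested genes were higher and 12.3% lower, and of the 5 genes there (Mdm4, Ccng1, Cdkn1b, Rb1 and Rbl1) 3 were higher. From 45% to 50% GC, 12.2% were higher and 42.3% lower, with Mdm2 higher and Rbl2 lower. At 50% GC and above, 1.91% were higher and 65.0% lower, with Trp53 and Cdkn1a lower and Cdkn2a not past the test.

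The 10 log2 ratios ran from -0.79 to 0.47. Of these, 9 lay between the 5th and 95th percentiles, -1.30 and 0.40, of the 9694 genes counted at least 50 times in both libraries. The exception was Cdkn1b. Their SD was 0.39, and 0.37 after subtraction of the GC trend, against 0.53 and 0.42 over the 9694 genes. Across the 10 genes Spearman's rho of the log2 ratio with GC was -0.38, and that of mean TPM with GC was -0.77, against -0.40 over the 9694 genes. These points share the same libraries, so the values are descriptions. The part of GC content in the levels was not tested, but among genes within 2 percentage points of the same GC content Trp53 moved from percentile 81.3 to 90.7 and Cdkn2a from 66.9 to 92.3. Rb1 moved from 86.5 to 75.7, Rbl1 from 86.3 to 74.4 and Rbl2 from 76.9 to 66.8, while Ccng1 moved only from 99.6 to 99.0. Cdkn1b moved from 88.6 to 77.9 and Cdkn1a from 70.2 to 78.2, so these CDK inhibitors then stood nearly level. Mdm2 moved from 96.5 to 94.8 and Mdm4 from 96.8 to 93.0, nearer to Trp53.

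**Figure D4:**
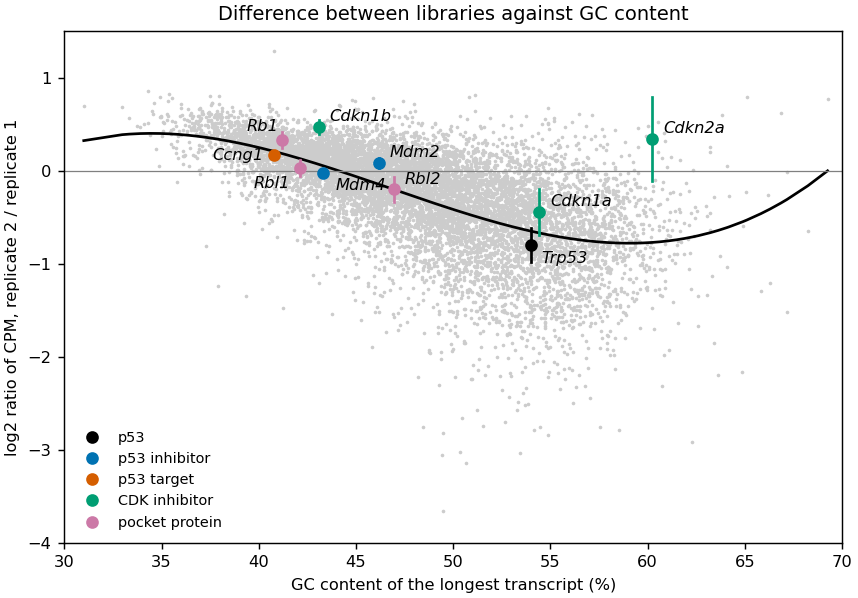
The log2 ratio of CPM, replicate 2 over replicate 1, against the GC content (%) of the longest transcript for the 9694 genes counted at least 50 times in both libraries (grey), with the fitted trend (black line) and the 10 genes in colour with 95% confidence intervals for counting error. Trp53 and Cdkn1a lie near the trend at 54% GC, and Cdkn2a lies 1.11 above it at 60.2% GC.

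The scaling set the direction of several of these small differences. Factors by TMM raised every log2 ratio by 0.22 and DESeq2 size factors raised it by 0.31, and with either 8 of the 10 genes passed the exact test, 7 of them higher in replicate 2 and only Trp53 lower, beside 57.8% of all tested genes. Of all called genes, 24.9% were higher with library totals, 46.8% with TMM, 54.8% with DESeq2 size factors and 51.6% with the GC trend as the expectation. Mdm2, Cdkn1b and Rb1 were higher in replicate 2 and past the test under each of these scalings. Trp53 was lower under each and passed the test under all but the GC trend.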

How the data were processed

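Messenger RNA was measured in 2 replicates of 1 group, taken as numbered in the labels. The table holds counts that the authors made with featureCounts (version 1.5.2 per the file header), which counted fragments in reverse-stranded mode over whole transcript spans per gene on mm10. The submitters' processing notes name Bowtie2 2.3.2 and STAR 2.4.2a, but the aligner settings of these libraries are not given in the sources used here. Column names lack a letter b of the sample descriptions and were matched by the rest; 0 other sample columns were present. The deposited length column is the gene span.

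Exonic length (GENCODE M21 basic) was matched for 21239 genes by symbol and 887 by an older symbol; the 430 unmatched genes held 0.192% of the counts of each library. GC content came from the longest transcript. TPM was averaged over replicates. With 1 group edgeR's quasi-likelihood test could not be run, so the exact binomial test served (at least 10 counts in total, adjusted p under 0.05, 0.5 counts added before log2, Python 3.11.15, scipy 1.17.1). It was checked on data simulated with counting error only. That check does not cover the further spread or the GC trend of these libraries. edgeR 4.0.16 and DESeq2 1.42.0 (R 4.3.3) gave scaling factors and the variation between libraries, over 12648 genes. The GC trend was a polynomial of degree 3 on autosomal genes. Intervals and floors (3 counts) cover counting error only, and the sources used here mention no molecular identifiers.

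The members and lists were chosen with earlier results of these data known. Named beside the 10 genes are, of each pathway list, the highest, the lowest and the most different gene past the test, and genes without counts; marker genes were chosen for mention after their values were seen, and 1 is not reported here. Promoters came from RefSeq (GRCm38.p6). Alternative lengths, scalings, filters, the pseudocount and single replicates were tried.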

Additional observations from a re-analysis of the deposited data

How the results depend on the processing

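No paired analysis was possible because only 1 group was sequenced. All 10 genes reached the minimum under every length, with either replicate alone, and at 0.1 and 5 TPM. The median level was 68.9 TPM on the exonic length, 32.3 TPM on the span length and 101 CPM without length, and 62.5 to 75.4 TPM with single replicates. The Rb1 share was 23.2% on the span length and 38.7% to 44.9% with single replicates. The Cdkn1b share was 89.3% on the span length, 87.6% without length and 75.0% to 84.1% with single replicates. The ratio of Mdm2 to Trp53 was 11.7 without length and 4.87 to 8.98 with single replicates. The order of the 10 genes was the same with the longest transcript; on the span length Cdkn1b stood above Mdm2, Trp53 above Rbl1, and Cdkn1a above Rbl2 and Rb1.

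Reversed log2 ratios between libraries were those of Mdm4 with TMM (0.20) and DESeq2 size factors (0.28), Rbl2 with TMM (0.023), DESeq2 (0.11) and the GC trend (0.0012), and Ccng1 (-0.039), Cdkn1a (0.23) and Rbl1 (-0.10) with the GC trend. A constant shift by the scaling, or the GC content of the gene, sets these by construction. Of 132 alternatives over 28 results, 90 kept their call or, for values without a test, moved by less than 1 SD between replicates, or, for counts of genes, stayed within 1.5 times; a mean of 2 replicates always moves by less than 1 SD when 1 is left out. Another 25 values without a test moved further, and of the tested ratios 3 were weaker, 6 stronger and 8 reversed. Counts over p53 targets and regulators and the percentiles within GC windows were added after seeing the data. Cdkn2a, with 82 and 89 counts, is the member that depth limits most.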

Other observations

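Targets of p53 other than those described ran through a wide range of levels and were chosen for mention after their values were seen. Trp53inp1, which encodes a stress protein of autophagy and apoptosis, stood at 704 and 994 TPM, Ckap2, which encodes a spindle protein, at 581 and 666 TPM, and Eda2r, a receptor gene of the TNF receptor family, at 461 and 619 TPM. The apoptosis gene Pmaip1, which encodes Noxa, stood at 148 and 171 TPM, whereas Bbc3, which encodes Puma, had 28 and 19 counts, or 2.05 and 1.73 TPM. Bax stood at 42.2 and 17.4 TPM, with 275 and 91 counts (log2 ratio of replicate 2 to replicate 1 -1.36, adjusted p = 3.98e-16, exact binomial test).

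The checkpoint kinase genes Atr and Chek1 stood at 269 and 335 TPM and at 179 and 235 TPM, above Atm at 79.6 and 92.9 TPM. Of the ribosomal protein genes whose products bind Mdm2, Rpl5 had 7377 and 6236 counts and Rpl11 only 174 and 93. Of their 50-base words, 48.5% for Rpl5 and 62.2% for Rpl11 are shared with other transcripts, mainly pseudogenes, so both levels are uncertain.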
